A study of Mus musculus with 2 samples.

Results

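The genes described here are 5 chemokine pairs that guide lymphocytes and dendritic cells, taken by symbol from a fixed list: Ccl20 and Ccr6, Ccl27a and Ccr10, Ccl17 and Ccl22, Ccl21a and Ccr7, and Cxcl16 and Cxcr6. They are 10 of the 31053 genes in the count tables, and each was read per library and per cell class. The data are 2 single-cell RNA libraries of dorsal skin from female C57BL/6 mice aged 6 to 8 weeks. One library is from mice without Chrna5, which encodes a nicotinic acetylcholine receptor subunit (KO), and the other from wild-type mice (WT). In both, 62.5 mg of 5% imiquimod cream, which activates Toll-like receptor signalling and inflames the skin much as psoriasis does, was given for 6 days to shaved animals, with skin collected on day 7. The labels give 5 mice per experimental group without saying whether a library pools them, name C57BL/6N in one place and C57BL/6J in another, and describe collagenase digestion and a sort for cells that exclude a dead-cell dye. Which part of Chrna5 the KO mice lack is not stated in those sources. The cream-base control group is not analysed here.

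Chemokines are secreted proteins that attract cells bearing the matching receptor. Ccl20 is made by epithelium and draws Ccr6-bearing type 17 lymphocytes and immature dendritic cells, while Ccl27a is made by keratinocytes and is held to draw skin-homing T cells through Ccr10. Ccl17 and Ccl22 come from dendritic cells and share the receptor Ccr4. Ccl21a is displayed by lymphatic endothelium and guides mature, Ccr7-bearing dendritic cells into the vessel, and Cxcl16 is a membrane-bound chemokine that is shed by proteases and bound by Cxcr6 on T cells.

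With 1 library per genotype, every difference is one between these libraries, without a replicate check and without a test. The KO library held 10886 barcodes with 123839924 UMIs and the WT library 14557 barcodes with 147260653 UMIs. Of these, 9605 KO and 11626 WT cells were kept, with medians of 6779 and 6375 UMIs, and 49 barcode sequences occurred in both libraries. Chrna5 itself had 6 UMIs in the KO library and 12 in the WT library over all kept cells, which is too few to check the genotype labels. Cells were gated by marker genes that hold none of the 10 members, and each class name stands for cells that resemble that type. The class named keratinocyte held 3813 KO and 6921 WT cells with medians of 14658 and 5704 UMIs. The class of T cells held 433 and 176 cells, monocytes and macrophages 770 and 937, lymphatic endothelial cells 130 and 78, Langerhans cells 56 and 39, and dendritic cells 14 and 7. In keratinocytes, T cells, and monocytes and macrophages, every marker was at least 2-fold above the rest of the library, against 5 of 7 Langerhans cell markers. Subclasses were less sharply marked: 3 of 6 upper follicle markers in KO and 5 of 6 in WT were 2-fold above the other keratinocytes, and Krt14 did not set basal cells apart. Among T cells, 7 of 10 markers of IL-17-type gamma delta cells in KO and 9 of 10 in WT passed the same mark, with Trdc at 0.746 and 1.61 times the other T cells, and 8 of 11 alpha beta markers did in each library, with Icos at 0.842 and 0.779 times. Levels are in CPM, the UMIs of a gene scaled to the same total of UMIs in every class and library, ratios are KO over WT, and brackets after them give exact 95% intervals for counting error only.

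**Figure D1:**
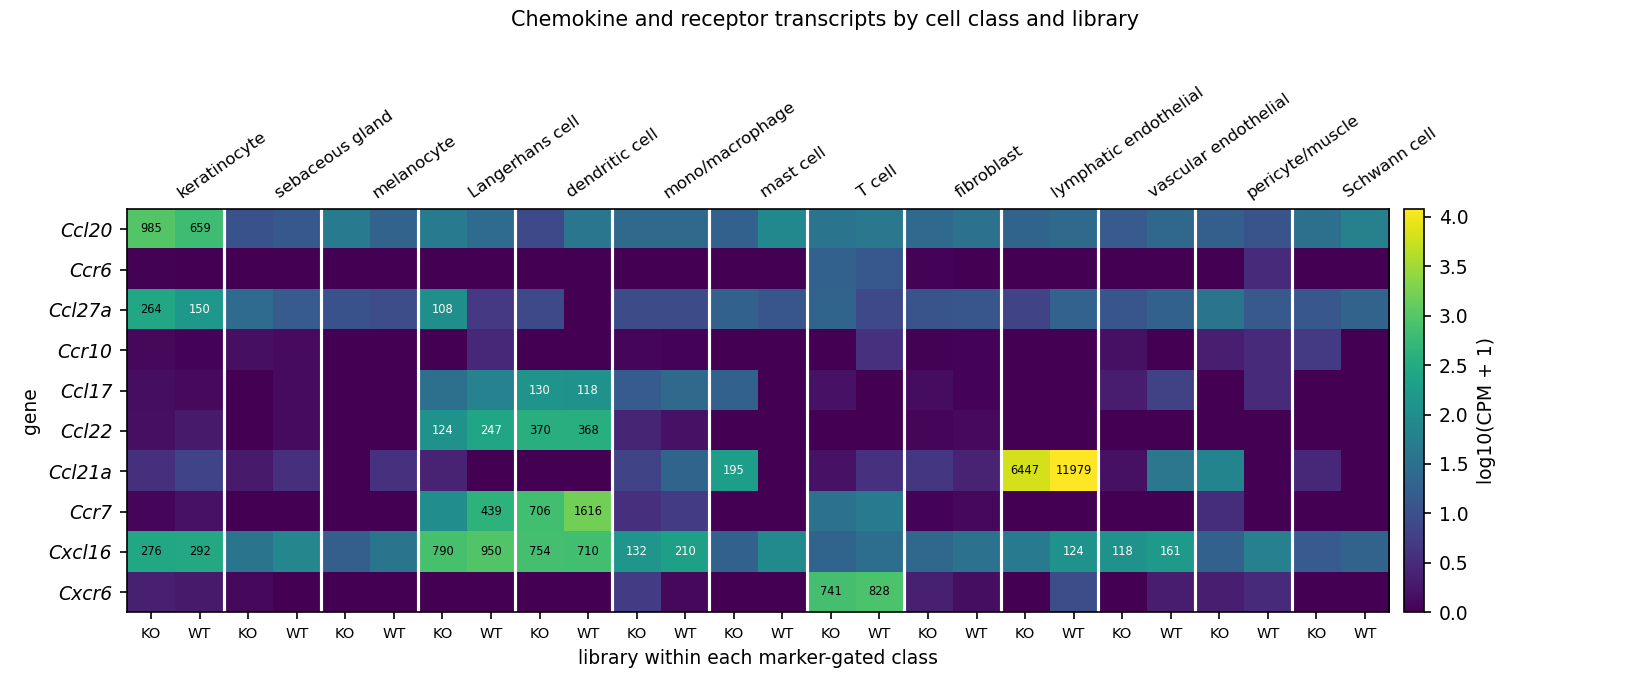
Levels of the 10 genes (rows) in 13 marker-gated classes, KO column left of WT column, coloured by log10(CPM + 1), with CPM printed where it is at least 100. Ccl20 and Ccl27a stand highest in keratinocytes, Cxcr6 in T cells, Ccl21a in lymphatic endothelial cells (6447 and 11979 CPM), and Ccl22 and Ccr7 in dendritic and Langerhans cells.

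Keratinocytes held 98.5% of the Ccl20 UMIs in KO and 98.3% in WT, and 95.8% and 96.3% of those of Ccl27a. Fibroblasts had 23.5 and 32.0 CPM of Ccl20 and 10.7 and 11.5 CPM of Ccl27a in the KO and WT library. By choice, levels of that size in other classes were not read as expression, and how much of them is free RNA was not measured. Over 24 points, which are 12 classes in each of the libraries, the genes whose level ran most like Ccl20 were Defb6 (Pearson's r of 0.909), a beta-defensin, Calm4 (0.896) and Klk12 (0.886). For Ccl27a these were Bbox1 (0.867), Helt (0.864) and Gm43242 (0.863). For Cxcr6 they were Ikzf3 (0.982), Jakmip1 (0.974) and Cd163l1 (0.969), for Ccr7 Gpr55 (0.967), Rhof (0.955) and P2ry10 (0.949), and for Ccl22 H2-M2 (0.992), Itgax (0.924) and Dcstamp (0.92). Ccl17 ran with Xlr (0.898), Csf1r (0.895) and H2-Aa (0.883), Cxcl16 with Gca (0.85), Capsl (0.831) and Lsr (0.818), and Ccl21a with Mmrn1 (0.938), Lyve1 (0.936) and Piezo2 (0.894). The points share library and depth, and Mmrn1, Lyve1 and other markers also entered the gates, so these values describe the map only.

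Ccl20, the ligand of Ccr6 (chromosome 1, 83116766 to 83119167, plus strand, mm10), was higher in keratinocytes of the KO library. Its level was 984.5 CPM in KO and 659 CPM in WT keratinocytes, a ratio of 1.49 (1.48 to 1.51). After thinning every cell to 1000 UMIs, 19.1% of KO and 18.8% of WT keratinocytes still had a Ccl20 UMI, against 2.25% and 3.21% of fibroblasts. Over all keratinocytes the share of cells with Ccl20 was therefore close between the libraries while the summed level was not. By subclass the thinned share differed in both directions. It was 46.2% in KO and 35.8% in WT suprabasal cells, 7.33% and 5.46% in basal cells, and 21.8% and 28.2% in upper follicle cells. A few cells held most of the transcript: the 5% of keratinocytes with most Ccl20 carried 79.1% of it in KO and 91.2% in WT, and single cells reached 1733 UMIs in KO and 1647 in WT.

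Within the epithelium the direction was not uniform. Suprabasal keratinocytes had the highest level, at 2907 CPM in KO and 1567 CPM in WT, a ratio of 1.86 (1.83 to 1.88). In basal keratinocytes Ccl20 was at 175 CPM in KO and 63.6 CPM in WT, a ratio of 2.75 (2.64 to 2.87). Upper follicle keratinocytes went the other way, with 658 CPM in KO and 1121 CPM in WT, a ratio of 0.587 (0.576 to 0.598). Outer follicle keratinocytes had 21.9 and 43.7 CPM, which is near the fibroblast level. The order of the levels, suprabasal above upper follicle above basal, was the same in both libraries, and no counting intervals of neighbours in it overlapped. Of 22 clusters with at least 50 keratinocytes over both libraries, 11 had at least 50 from each library. Among these 11 the ratio was above 1 with an interval above 1 in 6, and below 1 with an interval below 1 in 4. It ranged from 0.336 to 15.9. The median UMIs per cell also differed between libraries in these subclasses, at 22998 in KO and 2973 in WT suprabasal cells and at 16007.5 and 2614 in upper follicle cells, and the part of that in the ratios was not tested. Among all keratinocytes with at least 3000 UMIs the ratio was 1.49, but cells with few UMIs weigh little in such a summed ratio. The ratio over all keratinocytes was 1.31 with each cell weighed the same and 1.35 after thinning to 1000 UMIs. These settings were not applied to the subclass ratios. One of the 11 clusters, with 83 KO and 201 WT cells, was led by Serpine2, Prrx1, Ebf1 and Pdgfrb, a pericyte marker. Its Ccl20 ratio of 0.535 is among the 4 lower ones. Another, with 696 KO and 503 WT cells led by Nppc and Cxcl14, had a ratio of 0.336. The ratio was 0.412 in 119 KO and 1074 WT cells led by Tpm1 and 0.612 in 200 and 261 cells led by Cnfn. In the clusters led by Nppc and Tpm1, Krt14 was at 4066 and 3825 CPM and Krt10 at 28.1 and 35.1 CPM in KO. The highest ratio, 15.9, was in 59 KO and 603 WT cells led by Il33 (7877 CPM of Krt14 in KO). The clusters that were not compared included 367 KO and 15 WT cells led by Serpine2 and Prrx1, with Ccl20 at 886 and 211 CPM, and 159 KO and 7 WT cells led by Sostdc1, with 450 and 1268 CPM. They also included 114 KO cells and 1 WT cell led by Elovl6. More common in WT were 26 KO and 1113 WT cells led by the fibroblast genes Dcn and Ctsk, and 0 KO and 710 WT cells led by Ccl8, Tnc and Mmp3. With keratinocytes classed by cluster instead, the ratios of Ccl20 and Ccl27a were 1.49 and 1.77.

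**Figure D2:**
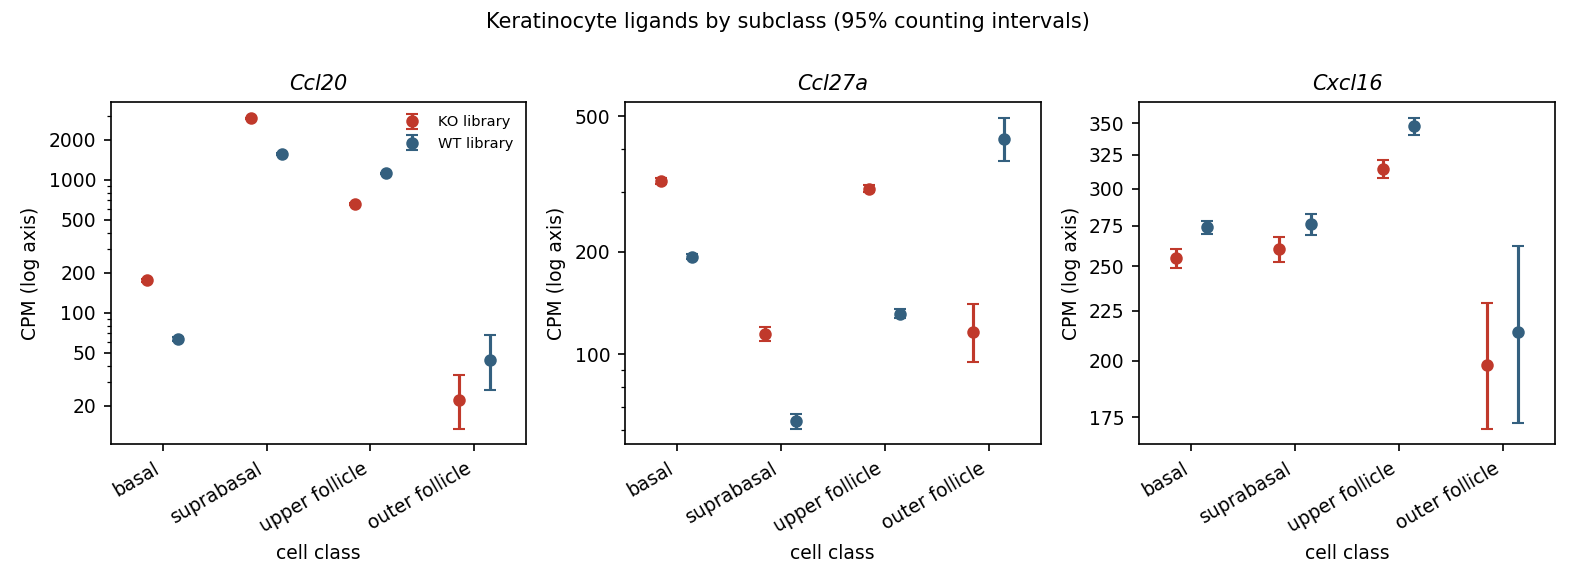
Levels of Ccl20, Ccl27a and Cxcl16 (CPM, log axis) in 4 keratinocyte subclasses, KO left of WT, with 95% counting intervals as bars. Ccl20 is higher in KO in basal and suprabasal cells and lower in KO in upper follicle cells, and Ccl27a is lower in KO in outer follicle cells alone among the 4.

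Ccl27a, the ligand of Ccr10 (chromosome 4, 41769467 to 41774247, minus strand), was also higher in keratinocytes of the KO library, at 264 CPM against 150 CPM in the WT library, a ratio of 1.76 (1.73 to 1.80). It was spread over more cells than Ccl20: 58.2% of KO and 46.4% of WT keratinocytes had a UMI, and 18.6% and 12.5% after thinning. Basal cells had 323 CPM in KO and 193 CPM in WT, suprabasal cells 115 and 63.6 CPM, and upper follicle cells 306 and 132 CPM, with ratios of 1.67, 1.80 and 2.33. Among the 4 subclasses, outer follicle cells stood apart, with 116 CPM in KO and 428 CPM in WT. That is a ratio of 0.271 (0.212 to 0.346), from 111 KO and 82 WT cells. In KO the outer follicle level did not differ from the suprabasal one beyond the counting intervals. In WT the outer follicle level was the highest of the 4. Of the 11 clusters, 8 had a ratio above 1 with an interval above 1 and 3 a ratio below 1 with an interval below 1. The highest of these ratios, 4.12, was that of the cluster led by Serpine2, Prrx1, Ebf1 and Pdgfrb. Ratios of 0.485 and 0.529 were those of the clusters led by Nppc and Tpm1, which were also lower in KO for Ccl20. The other lower ratio, 0.517, was in 210 KO and 81 WT cells led by Wfdc18 and Cldn3. Ccl27b, a related gene, had 43 KO and 94 WT UMIs over all kept cells.

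Because Ccl20 and Ccl27a were both higher in basal and suprabasal cells of the KO library, the 250 bases before a RefSeq start of each gene (build GRCm38.p6) are shown, 5′ to 3′ on the gene's strand. Ccl20 lies at chr1:83116516-83116765 on the plus strand and the Ccl27a start shown at chr4:41770213-41770462 on the minus strand. Capitals mark a match to the kappa B consensus in Ccl20, which begins 80 bases before the start, and a match to the AP-1 motif TGANTCA in Ccl27a, which begins 77 bases before it.
Ccl20: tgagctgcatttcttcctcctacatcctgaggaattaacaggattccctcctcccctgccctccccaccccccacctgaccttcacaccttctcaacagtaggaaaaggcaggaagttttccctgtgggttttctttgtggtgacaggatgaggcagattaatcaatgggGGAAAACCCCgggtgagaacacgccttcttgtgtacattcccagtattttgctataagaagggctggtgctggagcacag
Ccl27a: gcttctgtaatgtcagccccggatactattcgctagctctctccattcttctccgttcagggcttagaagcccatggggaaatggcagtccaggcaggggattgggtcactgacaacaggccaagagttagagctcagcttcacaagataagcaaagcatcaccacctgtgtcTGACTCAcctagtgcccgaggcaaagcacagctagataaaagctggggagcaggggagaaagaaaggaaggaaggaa
Windows were found for 7 of the 10 genes, 10 windows in all. Of these, 2 held the kappa B consensus (the Ccl20 window and 1 of 2 Ccr6 windows) and 1 held TGANTCA. The window shown is 1 of 3 for Ccl27a, and the other 2 held neither motif. Both strands were searched for both motifs, which did not overlap here. Of 32851 such windows in the table, 7.25% hold the kappa B consensus and 6.75% hold TGANTCA. Of 11 NF-kB feedback genes measured in keratinocytes, 1 was at least 2-fold higher in KO and 0 were lower, against 6.17% and 5.14% of all 15624 genes tested. That gene was Zfp36, an mRNA decay factor (733 and 316 CPM). Nfkbiz, an inducible cofactor, was at 349 CPM in KO and 219 CPM in WT, and Tnfaip3, an NF-kB inhibitor, at 130 and 77.2 CPM. The ratios of the 11 ran from 0.822 for Nfkb2 to 2.32 for Zfp36, and their median log2 ratio was 0.15 beside 0.05 over all genes. In upper follicle keratinocytes it was -0.15 beside 0.01, with 0 of 11 higher and 0 lower by 2-fold, and the ratios ran from 0.771 for Zc3h12a to 1.86 for Zfp36.

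Of the 10 genes, 9 had at least 20 UMIs in keratinocytes, where 0 were at least 2-fold higher in KO and 3 were at least 2-fold lower, beside the shares of all genes given above. The 3 are known mainly from other cells: Ccr7 (9 and 62 UMIs), Ccl22 (33 and 102 UMIs) and Ccl21a (184 and 593 UMIs). Of the Ccl22 UMIs in WT keratinocytes, 79 lay in a cluster of 300 such cells with a median of 3259 UMIs, whose leading genes included the macrophage genes Lyz2 and C1qb. That cluster held 4 KO keratinocytes. Among basal keratinocytes 5 of the 10 genes were measured, of which 1 was higher and 2 were lower by 2-fold, against 7.34% and 4.26% of all genes there. Among upper follicle keratinocytes these were 8, 1 and 2, against 4.33% and 6.99%. Of 26 other chemokine ligands measured in keratinocytes, 2 were at least 2-fold higher and 11 at least 2-fold lower, with a median log2 ratio of -0.73 beside 0.05 over all genes. Ccl2, a monocyte attractant, was the most abundant of them at 263 CPM in KO and 336 CPM in WT. Xcl1 was at 1.65 and 0.37 CPM, and Cxcl13, which draws B cells, at 1.58 and 32.0 CPM.

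Cxcl16, the ligand of Cxcr6 (chromosome 11, 70453983 to 70459984, minus strand), was the broadest of the ligands and was lower in the KO library in most classes. Its highest levels were in Langerhans cells, at 790 CPM in KO and 950 CPM in WT, a ratio of 0.832 (0.736 to 0.941), and in dendritic cells, at 754 and 710 CPM. Keratinocytes had 276 CPM in KO and 292 CPM in WT, a ratio of 0.944 (0.928 to 0.961), and the subclass ratios lay between 0.904 and 0.943. Of the 11 clusters compared above, 1 had a ratio above 1 with an interval above 1 and 5 a ratio below 1 with an interval below 1, and the ratios ranged from 0.518 to 1.23. Monocytes and macrophages had 132 CPM in KO and 210 CPM in WT, a ratio of 0.63 (0.578 to 0.687), and after thinning 10.3% of KO and 17.4% of WT cells had a UMI. Vascular endothelial cells had 118 and 161 CPM, a ratio of 0.732 (0.592 to 0.907), and lymphatic endothelial cells 48.3 and 124 CPM, a ratio of 0.388 (0.273 to 0.553). Sebaceous gland cells had 35.7 and 77.7 CPM and pericytes and smooth muscle cells 17.3 and 59.8 CPM. Fibroblasts had 23.3 and 32.7 CPM, and how much of the low levels is free RNA was not measured. Summed keratinocyte markers in lymphatic endothelial cells were at 429 CPM in KO and 1772 CPM in WT, with 1 of 14 at 0 in each library, and in monocytes and macrophages at 707 and 1381 CPM with none of 14 at 0, and their part in these ratios was not tested. The proteases Adam10 and Adam17, which shed Cxcl16, were at 57.4 and 38.4 CPM in KO keratinocytes and at 45.0 and 33.7 CPM in WT keratinocytes, and neither was past 2-fold there or in monocytes and macrophages. In monocytes and macrophages Cxcl2, a neutrophil attractant, was the most abundant other ligand (2606 CPM in KO, 6545 CPM in WT), Cxcl9 had the highest ratio (11.1 and 2.19 CPM) and Cxcl13 the lowest (452 and 2917 CPM). Of the 10 genes, 7 were measured in this class, of which 1 was higher and 1 lower by 2-fold, against 4.27% and 4.72% of 10844 genes. These were Cxcr6 (23 and 2 UMIs) and Ccl21a (32 and 167 UMIs, 72 of the WT ones in 1 cell).

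**Figure D3:**
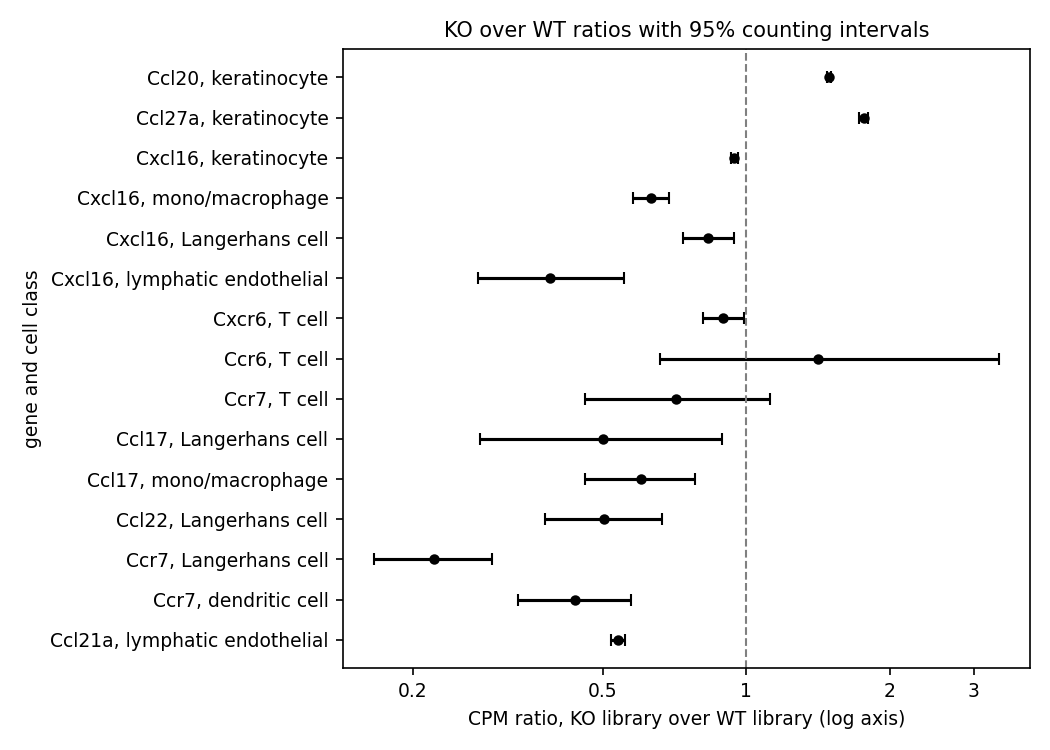
KO over WT ratios of CPM (log axis) for 15 pairs of gene and cell class, with exact 95% counting intervals as bars and a dashed line at 1. Ccl20 and Ccl27a in keratinocytes lie above 1, and the ligands and Ccr7 of Langerhans cells, Cxcl16 of macrophages and Ccl21a of lymphatic endothelial cells lie below it.

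Cxcr6, the receptor of Cxcl16 (chromosome 9, 123806475 to 123811760, plus strand), was the best measured receptor, and its summed T cell level was close in the libraries. T cells had 741 CPM in KO (1313 UMIs) and 828 CPM in WT (603 UMIs), a ratio of 0.895 (0.812 to 0.987). That direction turned when T cells were classed by cluster (1.04), when each cell counted the same (1.21) and after thinning (1.14). Over all kept cells Cxcr6 was at 14.7 CPM in KO and 5.19 CPM in WT, while T cells made up 4.51% of KO and 1.51% of WT cells. For T cells the median ratio of well-measured genes was 0.10 on the log2 scale, and on that scale the Cxcr6 ratio was 0.834.

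The subclasses of T cells differed in level and in direction. T cells with genes of the IL-17-making gamma delta type had 1604 CPM in KO and 1884 CPM in WT, and 87.6% and 92.3% of them had a UMI. The other gamma delta T cells had 198 and 268 CPM, with 24.6% and 28.2% of cells positive, a ratio of 0.737 (0.537 to 1.02). Alpha beta T cells had 533 CPM in KO and 265 CPM in WT, a ratio of 2.01 (1.53 to 2.67), and 49.1% of 108 KO against 31.7% of 63 WT cells had a UMI, or 25.9% and 12.7% after thinning. In WT the alpha beta and the other gamma delta cells did not differ beyond their counting intervals, whereas in KO the alpha beta cells were higher. One WT cell held 30 of the 67 WT UMIs and 1 KO cell 34 of the 264 KO UMIs. Of the 10 genes, 3 were measured in alpha beta T cells, of which 1 (Cxcr6) was at least 2-fold higher and 2 (Ccl20 and Ccr7) at least 2-fold lower in KO, against 9.96% and 2.31% of 4499 genes.

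Ccr6, the receptor of Ccl20 (chromosome 17, 8236043 to 8257141, plus strand), was sparse, and no difference was detectable at this depth. T cells held 31 UMIs in KO and 9 in WT, or 17.5 and 12.4 CPM, a ratio of 1.42 (0.658 to 3.38). T cells thus held 31 of the 43 Ccr6 UMIs of all kept KO cells and 9 of the 15 of all kept WT cells. Within them, the IL-17-type gamma delta cells had 18 and 6 UMIs and the alpha beta cells 13 and 3, while the other gamma delta cells had 0 in both libraries. Of the T cells with a Ccr6 UMI, 19 of 22 in KO and 5 of 7 in WT also had a Cxcr6 UMI, against 47.0% and 43.2% of the T cells without one.

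**Figure D4:**
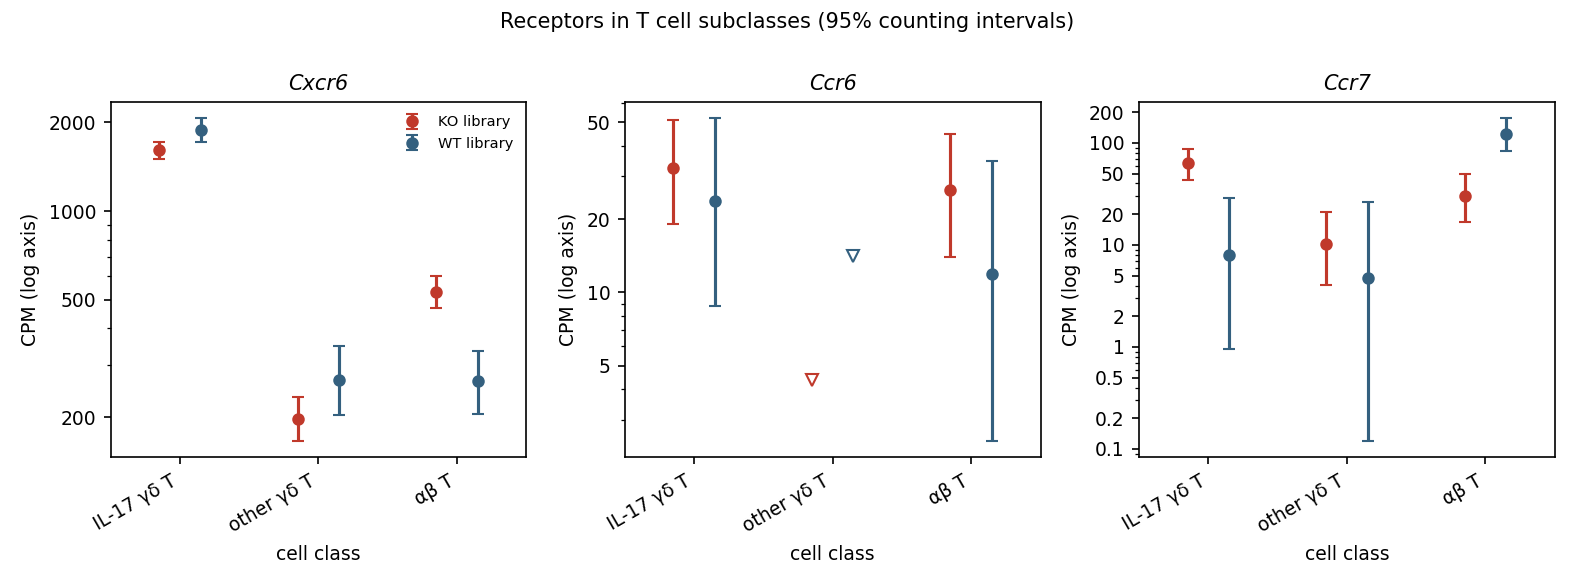
Levels of Cxcr6, Ccr6 and Ccr7 (CPM, log axis) in 3 T cell subclasses, KO left of WT, with 95% counting intervals as bars and open triangles for the level of 3 UMIs where a library had 0. Cxcr6 is highest in IL-17-type gamma delta cells of both libraries, and Ccr7 is higher in KO in those cells (62.8 and 7.95 CPM) and lower in KO in alpha beta cells (30.3 and 123 CPM).

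Other type 17 genes of the same T cells were not level. Of 9 type 17 genes measured in T cells, 0 were at least 2-fold higher and 2 at least 2-fold lower in KO, with a median log2 ratio of -0.56 beside 0.18 over 7613 genes, of which 7.34% were higher and 2.8% lower. Of the 10 genes listed, 7 also served as markers of a class or subclass, Il17a and Il17f among them. The 2 lower ones were cytokines, Il22 (98.7 CPM in KO, 718 CPM in WT) and Il17f (93.1 and 376 CPM). Il17a was at 152 CPM in KO and 111 CPM in WT, and Il23r, a receptor of type 17 cells, at 58.7 and 61.8 CPM. Of the 10 chemokine genes, 6 were measured in T cells, and the 1 past 2-fold was Ccl27a (35 and 5 UMIs, 19.7 and 6.86 CPM), near the fibroblast level. Of 8 regulatory and skin-homing genes measured in T cells, 0 were higher and 2 lower by 2-fold: Foxp3, the regulatory T cell factor and a marker of the alpha beta gate (14.7 and 41.2 CPM), and Tnfrsf4 (66.6 and 159 CPM). Among the other chemokine receptors Ccr2 was the most abundant (340 and 367 CPM) and Cx3cr1 had the highest ratio (25.4 and 19.2 CPM), and 0 of 7 were past 2-fold.

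Ccr10, the receptor of Ccl27a (chromosome 11, 101172997 to 101175443, minus strand), was close to undetected. T cells held 0 UMIs in 433 KO cells and 2 UMIs in 176 WT cells. With 3 counts set against this 0, up to 0.693% of KO T cells could have a UMI at this depth. That is a set floor and not an exact interval, and it limits cells with a UMI, not cells that express the gene. The whole KO library held 27 UMIs in kept cells and the WT library 21, of which keratinocytes held 15 and 12. No fold is given for T cells. Ccr4, the receptor shared by Ccl17 and Ccl22, had 13 and 7 UMIs over all kept cells, of which alpha beta T cells held 7 and 3.

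Ccl17 (chromosome 8, 94810453 to 94812036, plus strand) and Ccl22 (chromosome 8, 94745590 to 94751699, plus strand) were made by the antigen-presenting classes, and both were lower in Langerhans cells of the KO library, though not under every setting. Ccl22 in Langerhans cells was at 124 CPM in KO (83 UMIs in 20 of 56 cells) and 247 CPM in WT (134 UMIs in 20 of 39 cells), a ratio of 0.503 (0.378 to 0.666). Ccl17 in these cells was at 31.4 CPM in KO (21 UMIs) and 62.7 CPM in WT (34 UMIs), a ratio of 0.501 (0.276 to 0.889). After thinning, the Ccl22 ratio was 0.975, and with cells classed by cluster it was 0.735 (0.583 to 0.924). The Ccl17 ratio was 0.736 (0.449 to 1.20) with cells classed by cluster, so that its interval then held 1. The few dendritic cells had 370 CPM of Ccl22 in KO and 368 CPM in WT, and 130 and 118 CPM of Ccl17, and neither ratio was clear of 1 by its counting interval. With high doublet scores removed, however, the Ccl22 ratio in dendritic cells was 0.429 (0.236 to 0.778), and with each cell weighed the same it was 0.57. Monocytes and macrophages differed between the ligands: they held 80 Ccl17 UMIs in KO and 210 in WT, or 14.6 and 24.2 CPM, but 9 and 5 Ccl22 UMIs. One WT macrophage alone held 69 of the 210. Dendritic cells stood above Langerhans cells for Ccl22 in both libraries, although in WT the counting intervals of the 2 classes overlapped.

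Ccr7, the receptor of Ccl21a (chromosome 11, 99144196 to 99155077, minus strand), was lower in Langerhans cells and dendritic cells of the KO library. Langerhans cells had 97.3 CPM in KO (65 UMIs in 11 of 56 cells) and 439 CPM in WT (238 UMIs in 15 of 39 cells), a ratio of 0.222 (0.166 to 0.293). Dendritic cells had 706 CPM in KO (103 UMIs in 5 of 14 cells) and 1616 CPM in WT (123 UMIs in 6 of 7 cells), a ratio of 0.437 (0.333 to 0.572), and 0.401 without the highest cell of each library, which held 55 and 69 of these UMIs. The highest single Langerhans cell held 21 of the KO and 78 of the WT UMIs. Without the highest cell of each library the ratio was 0.219. It was 0.358 with high doublet scores removed and 0.487 (0.157 to 1.42) after thinning, and the thinned ratio of dendritic cells was 0.375 (0.107 to 1.23), so that both thinned intervals held 1. In the dendritic cell class, summed Langerhans cell markers were at 27477 CPM in KO and 16582 CPM in WT with 1 of 7 at 0 in each library. Keratinocyte markers there were at 377 and 1393 CPM with 4 and 2 of 14 at 0, and the markers of the class itself at 2439 and 3245 CPM with 2 and 4 of 18 at 0. The part of these in the Ccr7 ratio was not tested. Of the Ccr7-bearing Langerhans cells, 8 of 11 in KO and 10 of 15 in WT also had a Ccl22 UMI, against 26.7% and 41.7% of those without Ccr7.

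**Figure D5:**
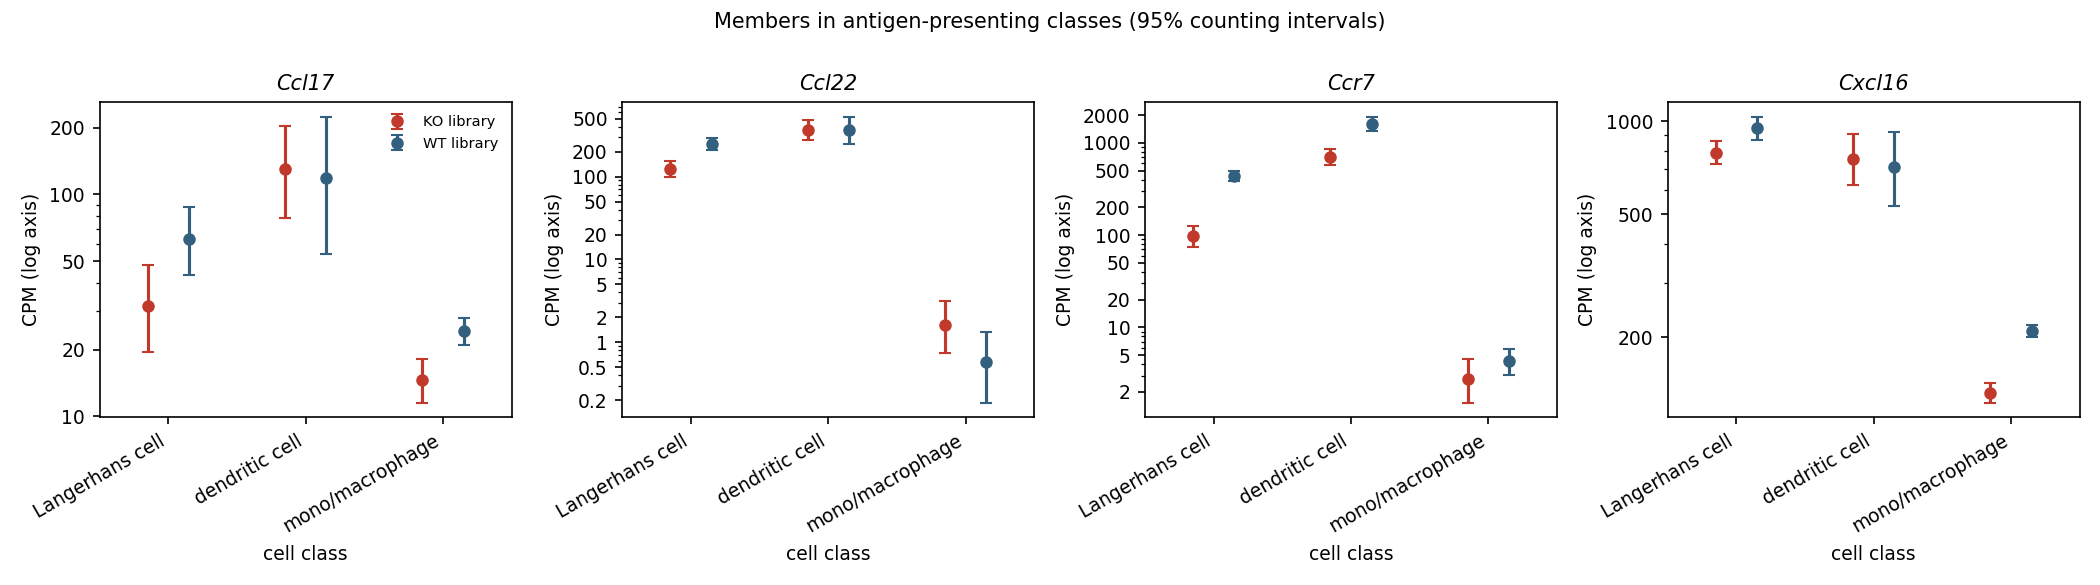
Levels of Ccl17, Ccl22, Ccr7 and Cxcl16 (CPM, log axis) in Langerhans cells, dendritic cells, and monocytes and macrophages, KO left of WT, with 95% counting intervals as bars. Ccr7 is lower in KO in both dendritic classes. Ccl17 and Ccl22 are lower in KO in Langerhans cells, though the Ccl17 intervals of the libraries overlap there. In dendritic cells the intervals of the libraries overlap for both ligands.

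Of the 10 genes, 6 were measured in Langerhans cells, of which 1 was at least 2-fold higher and 1 at least 2-fold lower in KO, against 15.8% and 5.34% of 5415 genes. The lower one was Ccr7, while Ccl17 and Ccl22 lay just short of 2-fold. The higher one was Ccl27a, with 72 UMIs in KO and 2 in WT. Summed keratinocyte markers in these cells were at 4179 CPM in KO and 797 CPM in WT, with 0 and 2 of 14 markers at 0, and the summed Langerhans cell markers were at 36269 and 55899 CPM, and the part of either in these ratios was not tested. Of 12 dendritic cell maturation genes measured there, 1 was higher and 1 lower by 2-fold, with a median log2 ratio of -0.56 beside 0.18 over all genes. The higher one was Cd274, an inhibitory ligand (35.9 and 9.22 CPM), and the lower one Il4i1, an amino acid oxidase and a marker of the dendritic cell gate (1 UMI in KO and 60 in WT). Cd86, a costimulatory ligand, was at 533 and 769 CPM, and Cd83, a maturation marker, at 347 and 526 CPM.

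In T cells Ccr7 was at 33.3 CPM in KO (59 UMIs) and 46.7 CPM in WT (34 UMIs), a ratio of 0.713 (0.46 to 1.12). Its subclasses went in opposite directions. The IL-17-type gamma delta cells had 35 UMIs in 21 of 121 KO cells and 2 UMIs in 2 of 39 WT cells, a ratio of 7.90 (2.03 to 67.8), the 1 of 5 measured members past 2-fold there, among 4531 genes of which 14.5% were higher and 4.13% lower. Alpha beta cells had 15 UMIs in 4 of 108 KO cells and 31 UMIs in 9 of 63 WT cells, a ratio of 0.247 (0.124 to 0.471). Of the T cells with a Ccr7 UMI, 27 of 33 in KO and 4 of 12 in WT also had a Cxcr6 UMI. Among the T cells without one, 46.25% in KO and 45.1% in WT did.

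Ccl21a (chromosome 4, 42772860 to 42773993, minus strand) was held mainly by lymphatic endothelial cells, with 93.5% of its KO and 86.2% of its WT UMIs, and its level there was lower in the KO library. Lymphatic endothelial cells had 6447 CPM in KO (10013 UMIs) and 11979 CPM in WT (5873 UMIs), a ratio of 0.538 (0.521 to 0.556). Almost every lymphatic cell carried it, 90.0% in KO and 96.2% in WT, with medians of 35 and 52.5 UMIs per cell. Over all kept cells the order was the other one, with 87.8 CPM in KO and 47.2 CPM in WT, while lymphatic endothelial cells were 1.35% of the KO and 0.671% of the WT cells. Some of the UMIs elsewhere came from single cells: the 37 UMIs in WT vascular endothelial cells were all in 1 cell, and the 55 UMIs in KO pericytes and smooth muscle cells were in 2 cells. All Ccl21a UMIs fell on the annotated gene on chromosome 4, the near-identical Ccl21b (400 of 402 aligned transcript bases the same) had 0, so how reads shared by the copies were counted bears on the level and was not tested.

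Of the 10 genes, 3 were measured in lymphatic endothelial cells, where 0 were at least 2-fold higher and 1, Cxcl16, at least 2-fold lower in KO, against 8.88% and 4.45% of 6699 genes. Of 9 lymphatic transport genes measured there, 0 were higher and 1 lower by 2-fold. That one was Vcam1, an adhesion molecule (29.0 and 97.9 CPM). The median log2 ratio of the 9 was 0.26 beside 0.09 over all genes. Prox1, the lymphatic identity factor, had the highest ratio of them, at 1074 CPM in KO and 600 CPM in WT. Lyve1 was at 1633 and 1430 CPM. Summed lymphatic markers, which are also genes of the gate, were at 8972 CPM in KO and 7646 CPM in WT. Their part in the Ccl21a ratio was not tested. Of 8 other chemokine ligands 4 were lower by 2-fold and 0 higher, and the most abundant of them, Ccl2, was at 4266 CPM in KO and 9739 CPM in WT. Ccl5 was lowest by ratio (3.22 and 108 CPM). Ackr2, a decoy receptor that takes up inflammatory chemokines, was at 178 and 131 CPM.

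Of 3 partners and scavengers measured in keratinocytes, 1 was higher and 1 lower by 2-fold in KO, against 6.17% and 5.14% of 15624 genes. The higher one was Ackr2, with 31 UMIs in KO and 21 in WT, a ratio of 2.10 (1.17 to 3.85). Over all kept cells Ackr2 was at 5.90 and 2.08 CPM, a ratio of 2.83 (2.47 to 3.25). Its ratio was 1.68 in fibroblasts and 1.36 in lymphatic endothelial cells. These classes were 28.7% and 1.35% of KO cells and 20.1% and 0.671% of WT cells. The part of these shares in the ratio over all kept cells was not tested. The lower one was Ccl19, with 2 and 26 UMIs, a ratio of 0.11 (0.0126 to 0.438). Ccl19, the second ligand of Ccr7, was in fibroblasts at 4.49 CPM in KO (90 UMIs) and 11.2 CPM in WT (202 UMIs), a ratio of 0.403 (0.31 to 0.519), where 3.53% of 13050 genes were at least 2-fold lower and 7.96% higher. Ackr4, a scavenger of Ccl19, Ccl20 and Ccl21, was in keratinocytes at 2.71 and 3.27 CPM, a ratio of 0.83 (0.694 to 0.99). Ccl28, the second ligand of Ccr10, had 4 UMIs in KO and 12 in WT over all kept cells.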

How the data were processed

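Each deposited matrix holds raw, whole-number counts of UMIs for every gene and barcode, per the file headers. Per the submitters' processing notes, Cell Ranger 3.0.2, Seurat 3.0 and the build mm10 were used; a version of 3.1.0 stands in the matrix header. No source used here says whether counting used strand. Barcodes with at least 200 genes, at least 1000 UMIs and at most 10% mitochondrial UMIs were kept (9605 KO and 11626 WT cells).

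Each marker was scaled per cell from the 30% quantile of its library to the 90% quantile of positive cells. A class needed a mean of at least 0.25 over its 5 highest markers, a margin of 0.1 over other lineages and 3 markers. Langerhans cells needed a Cd207 UMI, lymphatic cells 2 lymphatic markers, and subclasses 2 markers. The scoring rule was chosen with the data in view, and classes rebuilt this way may differ from the study's. Classed were 90.6% of KO and 93.6% of WT cells. Scrublet (in scanpy 1.11.5) called 0 doublets in either library, so it did not work and doublets remain. Where high doublet scores were removed, the 836 KO and 1354 WT cells with the highest Scrublet scores were dropped. These numbers were set from the barcodes and kept cells per library, so the cells dropped are not known to be doublets.

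UMIs were summed per class and library. Ratios have exact intervals conditional on the summed count, shares and sums exact binomial and Poisson ones. They cover counting error only. A sum of 0 was set against 3 counts. A gene was measured in a class with at least 20 UMIs over both libraries, mitochondrial genes left out, and counted as higher or lower at 2-fold. Named are the 10 genes, their partners and scavengers, other chemokine genes by highest level and ratio, and the 3 genes most alike by Pearson's r of log2(CPM + 1), among genes with at least 200 UMIs. Genes named from the other lists were chosen after their values were seen. Not every gene this rule names is reported here. The members and lists were chosen with earlier results of these data known. Positions are from GENCODE M21 (mm10), promoter windows from RefSeq. On simulated keratinocyte sums of 15483 genes, the interval covered the simulated ratio in 95.5% of genes left unchanged, of which 0.602% passed 2-fold. For T cells (7380 genes) these were 95.9% and 3.37%. The simulated sums held counting error alone, without spread between cells or mice. They check the computation, not how well the intervals or the 2-fold mark hold for real cells.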

Additional observations from a re-analysis of the deposited data

Results flagged for a closer look

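Results stand here where a gene went at least 1.5-fold up in the KO library in one class and at least 1.5-fold down in a related one, each with a counting interval clear of 1, also without the highest cell of each library. The differences themselves were not tested, since each genotype has 1 library.

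The Ccl20 ratio of basal keratinocytes (2.75) was 4.69 times that of upper follicle keratinocytes (0.587). The Ccl27a ratio of upper follicle keratinocytes (2.33) was 8.59 times that of outer follicle keratinocytes (0.271). The Ccr7 ratio of IL-17-type gamma delta T cells (7.90) was 32.0 times that of alpha beta T cells (0.247), on 37 and 46 UMIs over both libraries. Without the highest cell of each library these Ccr7 ratios were 11.9 and 0.0901. Fewer than 3 of the 37 UMIs came from the WT library, less than the count set against a sum of 0. The size of the IL-17-type ratio, and of the 32.0, is thus not settled.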

How the results depend on the processing

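No paired analysis was possible because each genotype has 1 library, which also leaves no replicate to leave out. The limits are the depth of Ccr6, Ccr10 and the dendritic and Langerhans classes, the unequal depth of keratinocytes, and doublets. Ccr10 in T cells gave no ratio, and some settings gave no value for the smallest classes. Langerhans cell ratios, the 3000-UMI minimum and the removal of the highest cell were added after seeing the data.

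The Cxcr6 ratio in T cells turned, at 1.04 with cells classed by cluster, 1.21 with each cell weighed the same and 1.14 after thinning to 1000 UMIs, and was 0.787 with at least 3000 UMIs. Cxcl16 in Langerhans cells turned to 1.03 after thinning. The cause was not tested. The others that moved past their counting interval kept their direction, except Ccl22 in dendritic cells, whose interval held 1 as reported. On the median-ratio scale Ccl20 in keratinocytes was 1.44 and Ccl27a 1.70. With each cell weighed the same, Ccl20 was 1.31, Ccl27a 1.51, Ccl22 in dendritic cells 0.57, Ccl21a in lymphatic endothelial cells 0.568 and Ccl17 in Langerhans cells 0.214. After thinning, Ccl20 was 1.35, Ccl27a 1.56, Ccl21a 0.561, and in Langerhans cells Ccl22 was 0.975 and Ccr7 0.487. With high doublet scores removed, Ccl22 in dendritic cells was 0.429, Ccl21a 0.517 and Ccr7 in Langerhans cells 0.358. Classed by cluster, Ccl21a was 0.571, Cxcl16 in monocytes and macrophages 0.735 and Ccl22 in Langerhans cells 0.735. Genes past 2-fold in keratinocytes numbered 1767, or 3240 with at least 1 UMI in each library. In T cells they numbered 772, or 2404 with that rule and 291 with at least 50 UMIs.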
